A study of Mus musculus with 24 samples.

Results

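The cytosolic ribosomal protein genes of the mouse distal jejunum were taken as the protein-coding genes named Rpsa, Rplp0, Rplp1 or Rplp2, or Rpl or Rps followed by digits and at most one letter a, x, y or l. Of the 79 genes that matched, 78 reached 10 counts or more in 3 or more of the 24 libraries, as did 21694 genes in all. The excluded gene was Rpl39l, which had at most 7 counts in any library. Of the 78 members, 47 encode large subunit proteins, 3 of them of the P stalk, and 31 encode small subunit proteins. Rpl10, Rps4x, Rpl36a and Rpl39 lie on the X chromosome. Rps4l, Rpl6l and Rpl32l matched by name but are annotated as pseudogenes or processed transcripts and were left out.

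The study compared male and female mice on a C57BL/6 background that were wild type (WT) or carried a germline disruption of Ptk6, written Ptk6-/-, an intracellular tyrosine kinase of epithelial cells. Mice were 9 to 11 weeks old and were kept as controls or received 100 mM succinate for 7 days, a metabolite that tuft cells sense. Each of the 8 groups held 3 mice, and RNA of the whole distal jejunum was sequenced. The knockout is in every cell of the body, and in RNA of whole tissue fewer cells of a type and less RNA per cell cannot be told apart. Ptk6 had 7 to 61 counts in the 12 Ptk6-/- libraries and 284 to 2405 in the 12 WT libraries.

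Ribosomal proteins assemble with ribosomal RNA into the small subunit, which decodes the mRNA, and the large subunit, which forms the peptide bond. Their genes are expressed in nearly every cell, and many of their mRNAs start with a pyrimidine tract (the 5′ TOP motif) through which growth signalling sets their translation. The intestinal epithelium renews itself continuously, and its dividing crypt cells carry a high demand for new ribosomes.

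Total counts lay between 8080321 and 52824743 per library, and 3 libraries stood apart. In male WT control replicate 1, 51.2% of the counts fell on Rn18s-rs5, an 18S ribosomal RNA locus. In male Ptk6-/- succinate replicate 1, the library with the fewest counts, this share was 29.7%. In female WT succinate replicate 2 the heart muscle markers summed to 18094 CPM, counts scaled to the library total, against a median of 37.4 over all libraries. Medians of the comparisons that use these libraries are given with and without them.

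Many members had a run of pyrimidines near the annotated start. Such a run can lie before or after the start, so it is not a measure of the 5′ TOP motif. Sequences 250 bases before to 50 bases after the annotated start were found for 58 of the 78 members (RefSeq, GRCm38.p6). A run of at least 10 pyrimidines lay within 50 bases of the start in 67.2% of these members, against 16.8% of 12423 other protein-coding genes past the count filter. CTCTTT on the sense strand was found in 37.9% against 10.8%, and CTTTCC on the sense strand in 36.2% against 14.4%. CCGGAAG, the core bound by ETS factors, was found on either strand in 39.7% against 15.5%. TATAAA on the sense strand occurred in 8.62% against 5.52%, and GGGCGG on either strand in 58.6% against 59.5%. CTCTTT can lie within a pyrimidine run, so these shares are not independent, and a match is not a binding site.

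The following windows hold 40 bases before and 20 bases from the start, with the longest pyrimidine run in capitals. In the Rps27l window 2 runs share the longest length, and the first is in capitals. The runs in capitals of Rps15a and Rps27l end before the annotated start. Rps15a is shown as one of the members called in the genotype comparison in males, and Rpl7a as the member least lowered there. Rps6 encodes the phosphorylated protein of the small subunit, Rpl35 has a long run, and Rps27l is the variant paralog of Rps27. Rpl28 varied between libraries, with a highest over lowest FPKM of 5.15. This was not particular to it, as the value was 5.33 for Rps6 and 26.8 for Rpl7a. They were chosen after their values were seen. The windows are at chr7:118116128-118116187 (minus strand) for Rps15a, chr2:26910767-26910826 (plus) for Rpl7a, chr4:86857348-86857407 (minus) for Rps6, chr2:39005112-39005171 (minus) for Rpl35, chr7:4792925-4792984 (plus) for Rpl28 and chr9:66946046-66946105 (plus) for Rps27l.
Rps15a: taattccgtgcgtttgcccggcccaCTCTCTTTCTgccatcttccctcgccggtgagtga
Rpl7a: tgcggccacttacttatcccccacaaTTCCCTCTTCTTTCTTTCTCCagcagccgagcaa
Rps6: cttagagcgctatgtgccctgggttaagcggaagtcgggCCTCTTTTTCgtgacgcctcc
Rpl35: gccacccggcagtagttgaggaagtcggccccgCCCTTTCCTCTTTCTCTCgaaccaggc
Rpl28: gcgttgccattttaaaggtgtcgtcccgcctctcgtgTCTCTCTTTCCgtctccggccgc
Rps27l: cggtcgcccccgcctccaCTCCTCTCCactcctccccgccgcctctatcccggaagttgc
Rpl7a, whose mRNA followed the other members least, had the longest run of the 6, at 21 bases, and Rps27l the shortest, at 9.

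Levels per length were compared as FPKM, fragments scaled to transcript length and to the mapped fragments of a library. Rps2, a small subunit protein near the mRNA channel, had the highest median over the 24 libraries, at 895 FPKM, with a range from 345 to 2174. It was followed by the P stalk genes Rplp1, at a median of 513 FPKM, and Rplp0, at 479 FPKM. Rplp2, which pairs with Rplp1 in the stalk, had a median of 51.7 FPKM. Its median count was 6350 against 13247 for Rplp1. The log2 relative length read from counts and FPKM was -1.02 for Rplp2 and -3.08 for Rplp1, so the length divisor enters this gap. Rpsa, the small subunit protein also known as the laminin receptor, had a median of 280 FPKM, and Rps6 one of 285 FPKM. Rpl5 and Rpl11, which bind 5S ribosomal RNA and can inhibit Mdm2, had medians of 76.0 and 66.3 FPKM. At the lower end were Rps19, at 17.3 FPKM, Rps15a, at 17.1 FPKM, and Rpl39, at 14.0 FPKM. The order of the members depends on the length assigned to each gene. The relative length was 0.58 (log2) for Rps15a, whose median count was 6827. Many members also have processed pseudogene copies that can share reads, so single levels are uncertain.

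The members varied together across the libraries. Over the 24 libraries, the log2 FPKM of a member correlated with the mean of the other members with a median Pearson's r of 0.954, and 60 of the 77 members with at least 10 counts in every library had an r of at least 0.9. The libraries share a scale and include the 3 that stood apart, so these values are a description only. The lowest values were those of Rpl7a (0.298), Rpl4 (0.613) and Rps28 (0.670).

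Together the members took between 1.56% and 4.86% of the counts once Rn18s-rs5 was left out. In male WT controls the shares were 3.08%, 2.79% and 2.64%, and in male Ptk6-/- controls 1.69%, 1.74% and 1.61%. These groups did not overlap. In male WT mice given succinate the shares were 2.12%, 4.20% and 3.67%, and in male Ptk6-/- mice given succinate 4.17%, 2.00% and 2.09%. The first of the latter is the library with few counts that stood apart, and the others lay above the Ptk6-/- controls. In female WT controls the shares were 2.75%, 4.46% and 3.57%, and in female Ptk6-/- controls 2.03%, 1.56% and 3.47%. Female WT mice given succinate had 4.86%, 3.38% and 2.19%, and female Ptk6-/- mice given succinate 2.72%, 4.77% and 2.20%. In these 3 pairs of groups the genotypes overlapped, in males given succinate only through Ptk6-/- replicate 1. Without it the male Ptk6-/- values of 2.00% and 2.09% lay below the WT values of 2.12% to 4.20%.

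The share went together with a property of the whole library, the slope of log2 CPM on log2 transcript length over 14987 genes that are not members. In the 5 libraries with a share over 4% the slope was between 0.0328 and 0.0928. In the 4 libraries with a share under 2%, the 3 male Ptk6-/- controls and female Ptk6-/- control replicate 2, it was between 0.358 and 0.424. Male WT controls had slopes of 0.166 to 0.235 and male Ptk6-/- controls of 0.358 to 0.424, again with no overlap. Most members are short transcripts, and a length-adjusted median is given with each comparison, and the slope's part was not tested further.

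**Figure D1:**
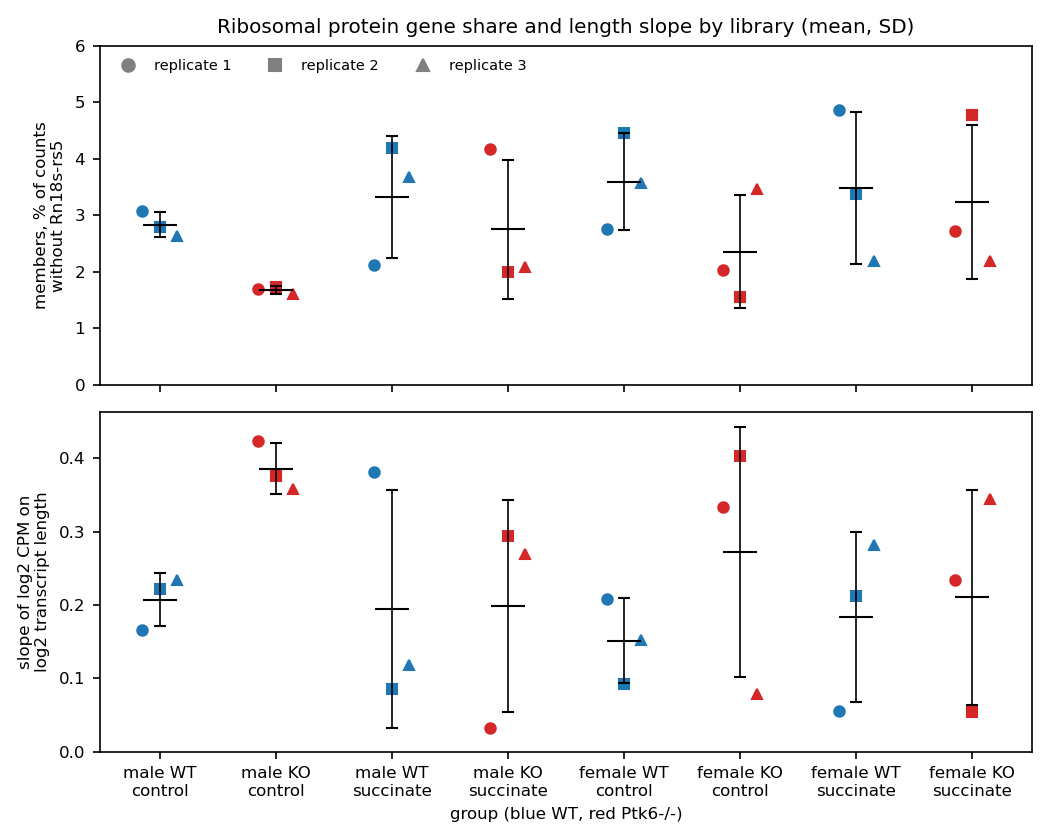
Upper panel, members' share of the counts without Rn18s-rs5 (%); lower panel, slope of log2 CPM on log2 transcript length, for the 8 groups, with 1 point per mouse, horizontal bars at the group mean and error bars of 1 SD. Male Ptk6-/- controls sit between 1.61% and 1.74%, below all male WT controls, and their slopes lie above those of the male WT controls.

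Loss of Ptk6 in control males was compared first. On counts with TMM scaling, every one of the 77 members tested had a lower level in the Ptk6-/- mice, though Rpl7a turned to the other side of 0 on FPKM and without 1 of the WT libraries. Their median change was -0.89 (log2, counts), whereas the median of all 19218 genes tested was 0.02. With edgeR's quasi-likelihood test, 64 members had a Benjamini-Hochberg adjusted p under 0.05 (1.87% of all genes tested passed in this direction), and 6 of these were at least 2-fold lower (0.224% of all genes in this direction and 0.739% in either). An unadjusted p under 0.05 was found for 76 members (25.2% of all genes). The groups did not overlap for 74 of the 77 members, against 16.3% of all genes in this direction. The markers of enterocytes summed to 11005 to 25242 CPM in the WT and 22574 to 29632 CPM in the Ptk6-/- libraries, and those of crypt and proliferating cells to 300 to 833 and 509 to 1185 CPM. The lowest WT values were those of male WT control replicate 1, whose total includes the 18S reads. Without it the WT ranges were 24438 to 25242 and 829 to 833 CPM. None of the 8 enterocyte and 10 crypt markers was at 0 in any library. Without this library, plasma cell markers summed to 10758 to 10982 CPM in WT and 5186 to 10449 CPM in Ptk6-/- mice, T lymphocyte markers to 50.9 to 55.2 and 42.3 to 48.3 CPM, and erythrocyte markers to 110.2 to 113 and 81.7 to 106 CPM. Lung markers, at 3.55 to 3.83 and 1.28 to 2.93 CPM, and pancreas acinar markers, at 4.16 to 6.12 and 2.90 to 3.73 CPM, did not overlap either. These 2 sums rest on few genes, here and for male mice below. In these libraries 3 of the 5 lung markers were at 0. Only 4 of the 6 pancreas acinar markers were found, with 1 to 3 of them at 0. The WT ranges without replicate 1 are those of 2 mice. The part of all these markers in the result was not tested.

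The 6 members called were Rps27a, Rpl36a, Rps25, Rpl13a, Rpl36 and Rps15a. Rps15a, a small subunit protein, had 175, 156 and 150 CPM (scaled by TMM factors over all libraries) in the WT mice and 72.7, 82.7 and 83.6 CPM in the Ptk6-/- mice. On this scale every Ptk6-/- value lay well below every WT value. By FPKM the WT mice had 9.68, 19.9 and 18.7 and the Ptk6-/- mice 10.1, 10.7 and 9.91, so WT replicate 1 lay lowest. On counts the log2 fold change of Rps15a was -1.03 (SE 0.13, edgeR adjusted p = 0.0200). Rps27a, which encodes a fusion of ubiquitin with a small subunit protein, showed the largest difference of the members, at -1.25 (SE 0.24, edgeR adjusted p = 0.0370). Its values were 151, 136 and 87.2 CPM in WT and 42.1, 61.8 and 57.1 CPM in Ptk6-/- mice, with the third WT mouse closest to the Ptk6-/- range. Rpl13a, a large subunit protein also known from interferon-dependent translational silencing, had 692, 588 and 616 CPM against 275, 333 and 329 CPM, a log2 fold change of -1.04 (SE 0.16, edgeR adjusted p = 0.0280). Rpl36a, on the X chromosome, changed by -1.06, Rps25 by -1.04 and Rpl36 by -1.04. The smallest p belonged to Rps19, the gene most often mutated in Diamond-Blackfan anaemia, at -0.99, together with Rps15a and Rpl9, at -0.84.

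The members with other roles lay in the same range. Rpsa changed by -0.96, Rplp0 by -0.72, Rplp1 by -0.92, Rps6 by -0.87, Rpl5 by -0.73 and Rpl11 by -0.94, all with an edgeR adjusted p under 0.05. Rplp2, at -0.78, had an edgeR adjusted p = 0.0979. Of the other X-linked members, Rps4x was at -0.91, Rpl10 at -0.83 and Rpl39 at -0.97, all under 0.05. Rps27 changed by -0.85 and its paralog Rps27l, a target of p53, by -0.74.

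Rpl7a and Rps28 were the members least lowered. Rpl7a, a large subunit protein, had 94.9, 253 and 172 CPM in WT and 165, 100.1 and 151 CPM in Ptk6-/- mice. The groups overlapped, and the log2 fold change was -0.33 (SE 0.32, edgeR adjusted p = 0.575). It was -0.59 without male WT control replicate 1, 0.0622 without male WT control replicate 2 and 0.17 on log2(FPKM + 1). Rps28, at -0.57, had an edgeR adjusted p = 0.0994.

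The size and the number of calls in this comparison depended on the scale and on single libraries. With library totals in place of TMM scaling the median was -0.47 and 0 members were called. With the replicate number as a block 0 were called too. The shares of all genes called in these fits are not given here, so a count of 0 does not set the members apart. Adjusted for transcript length, the median was -0.60, with 5 members under an adjusted p of 0.05 (0.593% of all genes) and 2 called (0.281% of all genes). On log2(FPKM + 1) it was -0.42 with none called by limma. Male WT control replicate 1, whose FPKM are divided by a total that includes the 18S reads, was part of the FPKM value: without the 3 libraries that stood apart, the FPKM median was -0.72, with 61 members under an adjusted p of 0.05 (4.55% of all genes) and 0 called at 2-fold. On counts without male WT control replicate 1 the median was -0.73, with 62 members under 0.05 (4.78% of all genes) and 1 of 77 called, near the 1.10% of all genes. Without Ptk6-/- control replicate 1, 48 members were under 0.05 (4.82% of all genes). Without any one of the other 4 libraries none was, although the median stayed between -0.96 and -0.92. The gene lists read beside the members below had none in these fits either. The share of all genes is not given for these fits.

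**Figure D2:**
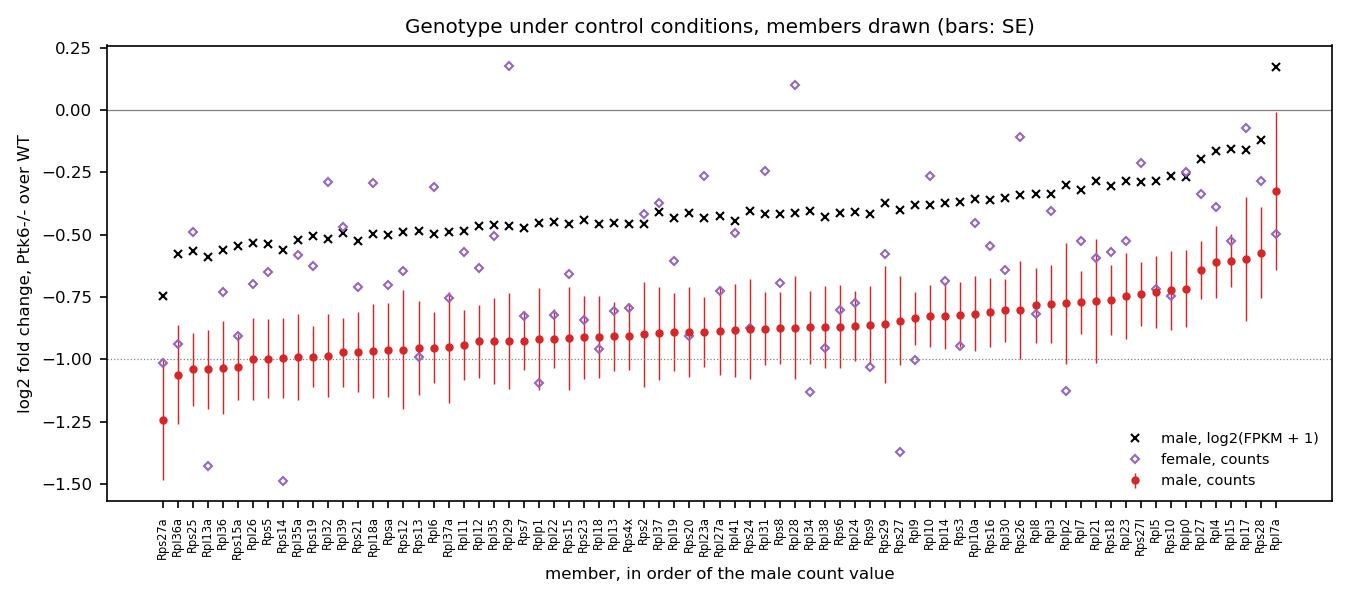
Log2 fold change of the members drawn, Ptk6-/- over WT, under control conditions, ordered by the male value from counts (circles, bars of 1 SE), with the male value on log2(FPKM + 1) (crosses) and the female value from counts (diamonds). All male count values lie below 0, between -1.25 and -0.33, and the female values spread more widely, from -1.49 to 0.18 for the members drawn.

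Other genes of the translation apparatus, and pseudogenes of ribosomal proteins, were read beside the members in control males. Of all genes tested, 4.23% had an adjusted p under 0.05 in either direction and 0.739% were called. Of 78 mitochondrial ribosomal protein genes, 77 were lower, with a median of -0.45 and 11 under an adjusted p of 0.05. Of 20 genes for translation factors and other 5′ TOP mRNAs, 18 were lower, with a median of -0.40 and 5 under 0.05. Ribosome biogenesis and RNA polymerase I genes, which act upstream in ribosome production, were lower in 17 and higher in 11 of 28, with a median of -0.09 and 2 under 0.05. The pseudogenes of ribosomal proteins were lower in 171 of 174 tested, at a median of -0.87, and 5 were called. Pseudogenes can share reads with the members, so their values are not separate from those of the members. Of the 5 fusion and variant genes outside the naming rule, all were lower, at a median of -0.89. As for the members, no gene of these 5 lists was under 0.05 without any one of the same 4 libraries.

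In control females, 76 of 78 members were lower in Ptk6-/- mice, with a median of -0.64. No member had an edgeR adjusted p under 0.05, 7 had an unadjusted p under 0.05 (11.1% of all genes), and edgeR called 0.0158% of all genes tested. DESeq2 called 1 member, or 1.28% of them, near its 1.38% of all genes. The groups did not overlap for 6 members (9.37% of all genes in this direction). Whether members were called depended on female Ptk6-/- control replicate 3. For Rps15a the WT mice had 166, 376 and 235 CPM and the Ptk6-/- mice 89.4, 76.7 and 243 CPM, so the third lay within the WT range. Without this library the median was -1.37 and 68 members were called, while 9.65% of all genes were. Limma's voom with sample quality weights, on all libraries, called 60 members and 10.4% of all genes. The median was -0.37 without Ptk6-/- control replicate 1, -0.35 without Ptk6-/- control replicate 2 and -0.37 without WT control replicate 2, with no member called. Adjusted for transcript length, the median over all libraries was -0.48. The length slope of this library was 0.0789, and those of the other 2 female Ptk6-/- controls were 0.334 and 0.403. Lung markers summed to 14.5 to 15.5 CPM in the Ptk6-/- and 2.38 to 3.32 CPM in the WT mice, where up to 4 of the 5 were at 0 in a library. Heart muscle markers summed to 19.3 to 33.3 and 38.5 to 66.1 CPM, and B lymphocyte markers, which overlapped, to 22.1 to 77.5 and 14.4 to 25.2 CPM. Their part was not tested.

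The members with the smallest p in females were Rpl13a (-1.43, SE 0.40, edgeR adjusted p = 0.367), Rps14 (-1.49, SE 0.49) and Rplp1 (-1.09, SE 0.36), with no overlap between the groups. Without Ptk6-/- control replicate 3 they were at -1.81, -2.12 and -1.48. Rpl13a had 769, 1393 and 931 CPM in WT and 312, 254 and 564 CPM in Ptk6-/- females. Rpl29 was at 0.18 (SE 0.75) and was the member farthest above the median, but was at -1.36 without Ptk6-/- control replicate 3. The test of the difference between the sexes called no member and no other of the 20428 genes tested. The median of the interaction was 0.24, and 0 members had an unadjusted p under 0.05 (4.64% of all genes). On FPKM its median was -0.38, adjusted for length 0.13, without male WT control replicate 1 0.0846, and without female Ptk6-/- control replicate 3 -0.48.

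After succinate, edgeR called no member between the genotypes, while voom with sample quality weights called some in males, as given with the processing. In males 50 of 77 members were higher in Ptk6-/- mice, with a median of 0.14. Without male Ptk6-/- succinate replicate 1 the median was -0.76, on FPKM it was -0.66, and adjusted for length it was 0.26. B lymphocyte markers summed to 13.6 to 40.4 CPM in these Ptk6-/- and 113 to 121 CPM in these WT mice, and Paneth and goblet markers to 13252 to 18875 and 20884 to 21869 CPM. Lung markers, at 0 to 2.14 and 2.38 to 3.72 CPM, did not overlap either. Without Ptk6-/- succinate replicate 1, enterocyte markers summed to 26321 to 29969 CPM in Ptk6-/- and 18414 to 22154 CPM in WT mice. The part of these markers was not tested. Rpl36 (1.47, SE 0.89), Rps2 (-0.92, SE 0.60) and Rpl15 (-0.49, SE 0.33) had the smallest p, and Rps15 (1.23) and Rpl21 (1.23) lay far from the median, all with an edgeR adjusted p = 1.00. Without Ptk6-/- succinate replicate 1 Rpl36, Rps15 and Rpl21 turned to -0.55, -0.72 and -0.57, while Rps2 was at -1.25 and Rpl15 at -0.49. In females 72 of 78 were lower, with a median of -0.34. It was -0.27 adjusted for length, -0.32 without female WT succinate replicate 2, -0.87 without Ptk6-/- succinate replicate 2 and 0.0776 without WT succinate replicate 1. Crypt markers summed to 911 to 1084 CPM in the Ptk6-/- and 289 to 595 CPM in the WT mice, or 588 to 595 without the library with heart markers, and their part was not tested. Rpl7a, at 0.90 (SE 0.40, edgeR adjusted p = 0.931), lay on the other side of 0 (0.60 without WT succinate replicate 2), and Rpl28 was at -0.85 and Rps7 at 0.21. No member was called by edgeR in either sex, nor was any other gene tested (0% of all genes). An unadjusted p under 0.05 was found for 0 members in males and 1 in females (2.72% and 4.52% of all genes).

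Succinate itself was compared with control within each genotype. In male Ptk6-/- mice 76 of 77 members were higher after succinate, with a median of 1.23. None had an edgeR adjusted p under 0.05, and neither did any other of the 18966 genes tested. An unadjusted p under 0.05 was found for 54 members (7.75% of all genes). The groups did not overlap for 69 members (11.4% of all genes in this direction). Rps15a had 72.7, 82.7 and 83.6 CPM in controls and 390, 110 and 112 CPM after succinate. The first succinate value, from the library with few counts, was far above the others, which still lay above the controls. Without that library the median was 0.37, on FPKM it was 0.24, and adjusted for length it was 1.03. Heart muscle markers summed to 44.7 to 101 CPM after succinate and 17.0 to 36.7 CPM in controls. Erythrocyte markers summed to 429 CPM in the library with few counts, to 94.1 and 111 CPM in the other 2 after succinate and to 81.7 to 106 CPM in controls. Without that library T lymphocyte markers summed to 50.1 to 52.7 CPM after succinate and 42.3 to 48.3 CPM in controls, and pancreas acinar markers to 3.80 to 4.25 and 2.90 to 3.73 CPM. The part of these markers was not tested. Rps27 (1.28, SE 0.37), Rps27l (0.79, SE 0.27) and Rplp2 (2.60, SE 0.90) had the smallest p, all with an edgeR adjusted p = 0.600. Rps15 was at 2.58, and Rpl7a, at -0.37, was the 1 member below 0. Without the library with few counts these values were 0.78 for Rps27, 0.49 for Rps27l, 0.66 for Rplp2, 0.60 for Rps15 and 0.0210 for Rpl7a.

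In male WT mice 69 of 77 members were higher after succinate, with a median of 0.25 and an unadjusted p under 0.05 for 0 (4.07% of all genes). The median was 0.0723 adjusted for length, 0.39 without male WT control replicate 1, 0.55 without succinate replicate 1 and -0.0389 without succinate replicate 2. B lymphocyte markers summed to 113 to 121 CPM after succinate and 21.8 to 41.3 CPM in controls. Without male WT control replicate 1, enterocyte markers summed to 18414 to 22154 CPM after succinate and 24438 to 25242 CPM in controls, and Paneth and goblet markers to 20884 to 21869 and 23132 to 23279 CPM. Their part was not tested. Rps2 was at 0.88, Rps14 at 0.93 and Rpl38 at 0.87, all with an edgeR adjusted p = 0.947. Rps15a had 91.7, 302 and 216 CPM after succinate against 175, 156 and 150 CPM in controls, so replicate 1 lay below and the others above the controls. Without succinate replicate 1, 6 members, or 7.79% of them, were called, near the 5.80% of all genes. The interaction of genotype with succinate in males had a median of 1.04, with no member and no other of the 20340 genes tested called by edgeR. An unadjusted p under 0.05 was found for 1 member, Rpl36 at 2.50 (SE 1.02). Rps24 was at 1.79, Rpl37 at 1.36, Rps15 at 2.14 and Rpl7a at -0.32. Without male Ptk6-/- succinate replicate 1 these 5 members were at 0.46, 0.34, 0.42, 0.18 and 0.0323, in the same order. In the same comparison 3.80% of all genes had such a p. Without the 3 libraries that stood apart the median was 0.0027, and adjusted for length it was 0.84 with all libraries. On simulated data the fit of this interaction did not recover changes of known size, so the lack of calls does not show that the members were alike.

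In female WT mice given succinate 35 of 78 were higher and 43 lower, with a median of -0.02. It was -0.0021 adjusted for length, -0.0604 without succinate replicate 2, and between -0.39 and 0.31 with 1 library left out, the ends being without succinate replicates 1 and 3. In female Ptk6-/- mice 60 of 77 were higher, with a median of 0.28, which was 0.20 adjusted for length, 0.99 without control replicate 3 and -0.27 without succinate replicate 2. Enterocyte markers did not overlap between succinate and control, at 9250 to 25618 against 26697 to 33719 CPM in WT and 6930 to 18582 against 21595 to 28107 CPM in Ptk6-/- females. Nor did smooth muscle markers, at 4185 to 7131 against 3250 to 3843 and 4358 to 5718 against 2543 to 3764 CPM. In Ptk6-/- females, T lymphocyte markers summed to 27.8 to 30.3 CPM after succinate and 40.002 to 65.3 CPM in controls, lung markers to 8.91 to 11.5 and 14.5 to 15.5 CPM and heart muscle markers to 33.4 to 57.6 and 19.3 to 33.3 CPM. In WT females without succinate replicate 2, erythrocyte markers summed to 76.5 to 121 CPM after succinate and 136 to 212 CPM in controls. The part of these markers was not tested. No member had an edgeR adjusted p under 0.05 in either, and 2 in WT and 0 in Ptk6-/- mice had an unadjusted p under 0.05 (7.77% and 10.7% of all genes). In Ptk6-/- mice 0.0879% of all genes were called, and in WT mice 0%. Rpl13a (1.10), Rps7 (0.64) and Rps14 (0.81) had the smallest p in Ptk6-/- mice, and Rpl29 (-0.41) and Rpl28 (-0.72) lay farthest below. Without control replicate 3, Rpl29 was at 1.17 and Rpl28 at 0.69, and without succinate replicate 2 Rpl13a was at 0.37, Rps7 at 0.19 and Rps14 at 0.0361. In WT mice Rpl7a lay below the range of the controls, at -1.10 (SE 0.39, edgeR adjusted p = 0.617), with 138, 62.8 and 130 CPM after succinate and 168, 261 and 292 CPM in the controls, which were other mice. Without succinate replicate 2 it was at -0.82 (edgeR adjusted p = 1.00). Rps28 was at -0.52 and Rpl29 at 0.56. The interaction in females had a median of 0.35, with no member and no other of the 20531 genes tested called. An unadjusted p under 0.05 was found for 1 member (6.46% of all genes), Rpl7a at 1.41 (SE 0.50, edgeR adjusted p = 0.752), or 1.12 without WT succinate replicate 2. The median was 0.18 adjusted for length, 0.36 without WT succinate replicate 2, 1.06 without Ptk6-/- control replicate 3 and -0.20 without Ptk6-/- succinate replicate 2. Rps7 was at 1.05, Rpl29 at -0.93 and Rpl28 at -0.93, and without Ptk6-/- control replicate 3 the latter 2 were at 0.61 and 0.44.

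Rpl3l, the paralog that replaces Rpl3 in heart and skeletal muscle, was the one member confined to few libraries. It had 2988 counts in female WT succinate replicate 2 and 0 to 36 counts in each of the other 23 libraries. The same library had 278018 counts of Myh6, the heart myosin heavy chain. Rpl3 had 13031 counts there, within its range over the other libraries. The fitted change of Rpl3l with succinate in female WT mice, 7.02 (SE 2.43, edgeR adjusted p = 0.617), rested on this 1 library and was 0.79 without it. The same library lay behind the values of -8.04 for genotype in females after succinate and -6.49 for the female interaction, which was -0.27 without it. Between control groups Rpl3l was at -1.55 for genotype in females and -6.10 for sex by genotype, both from at most 15 counts in a library. These fitted values come from groups with libraries at 0 and depend on the fit.

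Females were compared with males among controls. All 77 members were higher in WT females, with a median of 0.51. It was 0.26 adjusted for length, with 72 of 77 higher, and 0.61 without male WT control replicate 1. With 1 library left out it lay between 0.26, without female WT control replicate 2, and 0.67, without female WT control replicate 1. Enterocyte markers summed to 26697 to 33719 CPM in females and 11005 to 25242 CPM in males, and smooth muscle markers to 3250 to 3843 and 1604 to 2523 CPM. Erythrocyte markers summed to 136 to 212 CPM in females and 68.6 to 113 CPM in males, and heart muscle markers to 38.5 to 66.1 and 22.5 to 27.1 CPM. Without male WT control replicate 1, crypt markers summed to 496 to 627 CPM in females and 829 to 833 CPM in males, plasma cell markers to 5673 to 10489 and 10758 to 10982 CPM and lung markers to 2.38 to 3.32 and 3.55 to 3.83 CPM. The part of these markers was not tested. No member had an edgeR adjusted p under 0.05, while 0.0422% of all genes were called. An unadjusted p under 0.05 was found for 28 members (15.3% of all genes), and the groups did not overlap for 13 (13.3% in this direction). Rpl38 (0.93, SE 0.27) and Rps14 (0.91, SE 0.27) had the smallest p, both with an edgeR adjusted p = 0.249, followed by Rpl21 (0.95, SE 0.30). Rplp2 was at 0.96 and Rpl3, at 0.05, lay nearest to no difference. On log2(FPKM + 1), Rpl38 was at 1.13, Rps14 at 1.12, Rpl21 at 1.16, Rplp2 at 1.17 and Rpl3 at 0.32. Without female WT control replicate 2, Rpl38 was at 0.54, Rps14 at 0.51, Rpl21 at 0.59, Rplp2 at 0.53 and Rpl3 at -0.0899. The X-linked Rpl10, Rps4x, Rpl36a and Rpl39 were at 0.47, 0.52, 0.62 and 0.41, close to the median of the members. On log2(FPKM + 1) they were at 0.73, 0.77, 0.85 and 0.64. In Ptk6-/- controls all 77 members were higher in females too, with a median of 0.73, which was 0.43 adjusted for length and 0.0322 without female Ptk6-/- control replicate 3. Adjusted for length, Rplp1, at -0.12, and Rps27, at -0.38, were below 0. Lung markers summed to 14.5 to 15.5 CPM in these females and 1.28 to 2.93 CPM in these males, and their part was not tested. An unadjusted p under 0.05 was found for 1 member, Rps26 at 1.29 (3.24% of all genes), and none was called, against 0.0311% of all genes. Rpl29 was at 1.74, Rpl21 at 1.13, Rpl28 at 1.42 and Rps27 at 0.08. On log2(FPKM + 1) these were at 0.96, 0.71, 0.74 and -0.24, in the same order, and Rps26 was at 0.83. Without female Ptk6-/- control replicate 3, Rps26 was at 0.34, Rpl29 at 0.19, Rpl21 at 0.28, Rpl28 at 0.0361 and Rps27 at -0.47.

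**Figure D3:**
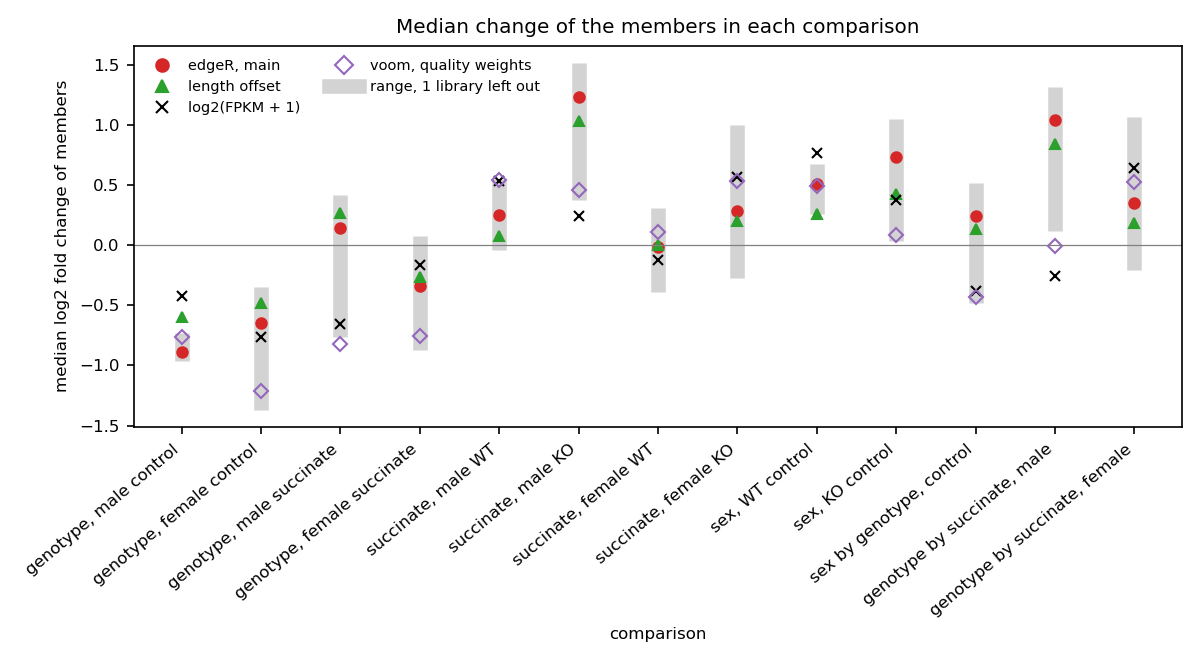
Median log2 fold change of the members (vertical axis) in the 13 comparisons (horizontal axis) from edgeR, with a length offset, on log2(FPKM + 1) and from voom with sample quality weights; grey bars span the values with 1 library left out. In control males each of these values lies below 0, while the bars cross 0 in 7 of the 13 comparisons.

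Some members departed from the rest within a library. Relative to the member median of the same library, the FPKM of Rpl7a was 0.0592 in male Ptk6-/- succinate replicate 1, 0.180 in female WT succinate replicate 2 and 0.335 in male WT control replicate 1, the libraries that stood apart. It was also low in libraries that did not stand apart, at 0.283 in female WT succinate replicate 1 and 0.347 in male WT succinate replicate 3. Its highest value was 1.21, in male Ptk6-/- control replicate 1. Rpl29, a small basic protein of the large subunit, reached 3.66 times the median in female Ptk6-/- control replicate 3 and 3.13 times in male Ptk6-/- succinate replicate 1.

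**Figure D4:**
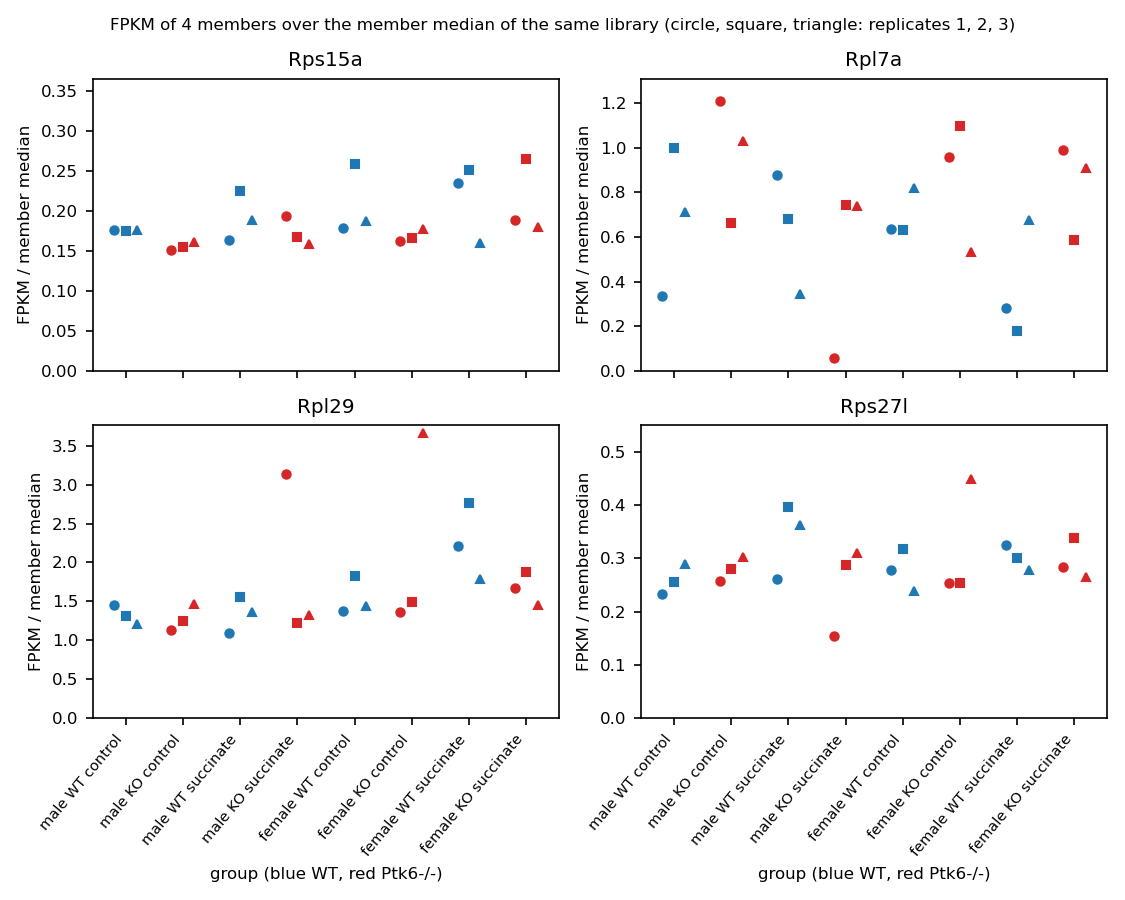
FPKM of Rps15a, Rpl7a, Rpl29 and Rps27l divided by the median FPKM of the members in the same library, with 1 point per mouse in the 8 groups. Rpl7a falls to 0.0592 in 1 library and Rpl29 rises to 3.66 in another.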

How the data were processed

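RNA of the distal jejunum of 24 mice was sequenced by the authors from stranded poly(A) libraries. The authors deposited raw counts per gene, and FPKM values computed with StringTie and ballgown after mapping with HISAT2. The submitters' processing notes name GRCm39. The annotation release and the program that counted reads are not given in the sources used here. Tests on counts were run with edgeR 4.0.16 in R 4.3.3 (TMM, quasi-likelihood test, at least 10 counts in at least 3 libraries of a comparison), and calls required a fold of at least 2 together with a p under 0.05 after Benjamini-Hochberg adjustment. FPKM were tested with limma 3.58.1 on log2(FPKM + 1), a scale that understates changes of low genes, at a mean FPKM of at least 0.5. The 10 comparisons of 2 groups and 3 interactions were each fitted over all genes, so comparisons that share control mice are not independent. DESeq2 1.42.0, voom with quality weights, other scalings, filters, a length offset, a replicate block and leaving out each library were alternatives. The fits were tested on simulated data with 200 changed genes. At an adjusted p under 0.05 the genotype comparison in control males recovered 75% of them, with 16 false calls. It recovered 56% of the 2-fold and 94% of the 4-fold changes. Changes under 2-fold, as most members showed, were not simulated. The male interaction recovered none of the changed genes. The members and gene lists were chosen with earlier results of these data known. Genes were named if they had a known role or lay on the X chromosome, were called, or had in a comparison one of the 3 smallest p-values or of the 3 values farthest from the members' median. Single values of 2 members are not reported here, and these members stay in all counts and medians. Mice came from different litters of 1 colony, and 3 mice per group set the precision.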

Additional observations from a re-analysis of the deposited data

How the results depend on the processing

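In control males the median change of the members was below 0 under every alternative run. With no fold threshold 64 members passed there. The members called were 0 with library totals in place of TMM, on log2(FPKM + 1), log2(FPKM + 0.1), log2(FPKM + 1) with no filter, without the 3 libraries that stood apart on FPKM, and with all 24 libraries in 1 fit; they were 2 with no filter on low counts (0.658% of all genes), 2 with the length offset (0.281%) and 1 of 77 with voom quality weights, which called 3.00% of all genes. With 1 library left out they were 0 to 1. Where no share of all genes is given, a count of 0 does not set the members apart. The median was -0.47 with library totals, -0.60 with the length offset, -0.42, -0.43 and -0.42 on the FPKM scales, -0.72 on FPKM without the 3 libraries, and -0.96 to -0.73 with 1 library left out.

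Replicate numbers did not pair the mice: in no comparison of 2 groups were all correlations of same-numbered libraries over 0.1, and in control males they were -0.07 to 0.02. With the replicate block the members called in control males were 0, and 0 also with block and length offset, where the median was -0.59 and Rpl7a was at 0.0245. With the block Rpl29 was at -0.42 in control females and 0.20 for succinate in female Ptk6-/- mice, and Rps27 at -0.10 for sex in Ptk6-/- controls, or -0.42 with the length offset; Rpl3 was at -0.0527 for sex in WT controls with both.

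In control females DESeq2 called 1 member (1.38% of all genes) and voom 60 (10.4%); with 1 library left out 0 to 68 were called at medians of -1.37 to -0.35. Voom called 10 members (9.52% of all genes) for genotype in males after succinate (median -0.82; -0.76 to 0.42 with 1 library left out) and 6 (7.81% of all genes) for succinate in male WT mice (0 to 6 with 1 left out). For succinate in male Ptk6-/- mice the median was 0.39 with library totals, 0.46 with voom, 0.24, 0.25 and 0.24 on the FPKM scales, 0.26 without the 3 libraries, and 0.37 to 1.51 with 1 left out. For sex in Ptk6-/- controls it was 0.0322 to 1.05 with 1 left out. For sex by genotype it was -0.43 with voom, -0.38, -0.39 and -0.38 on FPKM, and -0.48 to 0.51 with 1 left out. For genotype by succinate in males it was -0.0199 with library totals, -0.00755 with voom, -0.25, -0.25 and -0.24 on FPKM, 0.0558 on FPKM and 0.0027 on counts without the 3 libraries, and 0.12 to 1.31 with 1 left out.

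Against the effective library size the members' share was 1.43% in male Ptk6-/- controls and 3.42% in male Ptk6-/- mice given succinate, or 1.89% there without replicate 1, and by summed FPKM the latter were at 0.922 times the male WT controls.

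Single members changed sign as follows, in the order voom, log2(FPKM + 1), log2(FPKM + 0.1), no FPKM filter, and the range with 1 library left out. For genotype in control males, Rpl7a was at 0.17, 0.18 and 0.17 on FPKM (-0.59 to 0.0622). In control females Rpl29 was at -1.11, -0.36, -0.36 and -0.36 (-1.36 to 0.60), and with 1 left out Rplp0 was at -0.95 to 0.0440, Rpl10 at -1.38 to 0.13 and Rps27l at -1.35 to 0.17. In males after succinate Rpl36 was at -0.61, -0.0062, -0.00706 and -0.0062 (-0.55 to 1.95), Rps15 at -0.73, -0.11, -0.11 and -0.11 (-0.72 to 1.69) and Rpl21 at -0.74 (-0.57 to 1.71); on FPKM without the 3 libraries they were at -0.52, -0.60 and -0.36. In females after succinate Rps7 was at -0.13 with voom (-0.23 to 0.51). For succinate in male Ptk6-/- mice Rpl7a was at 0.0706 with voom and 0.16 with pseudogenes summed (-0.64 to 0.0210). For succinate in female Ptk6-/- mice Rpl29 was at 0.63, 0.26, 0.26 and 0.26 (-1.02 to 1.17) and Rpl28 at 0.27 with voom (-1.15 to 0.69). For sex, Rpl3 in WT controls was at -0.0510 with the length offset and -0.0431 on FPKM without the 3 libraries (-0.0899 to 0.16), and Rps27 in Ptk6-/- controls at -0.36, -0.24, -0.25 and -0.24, -0.19 with library totals and -0.38 with the length offset (-0.47 to 0.45). For sex by genotype Rpl29 was at -0.33 with voom (-0.44 to 1.53). For genotype by succinate in males Rps15 was at -0.0209 on counts without the 3 libraries, and Rpl7a at 0.46 with voom, 0.31 with pseudogenes, 0.34 on FPKM and 0.33 on counts without the 3 libraries (-0.69 to 0.0563). For genotype by succinate in females Rpl28 was at 0.000825 with voom and 0.0112 on FPKM without the 3 libraries (-1.33 to 0.44), and Rpl29 at -1.50 to 0.61 with 1 left out. The cause of these differences was not tested. Leaving out the 3 libraries was chosen after seeing the data. With 3 mice per group, a change within the spread of the libraries could not be shown.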
